A study of Mus musculus with 8 samples.

Results

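Of the 41709 genes in the table, 10 are described here, all genes of the circadian clock: *Clock*, *Npas2*, *Per1*, *Per2*, *Per3*, *Cry1*, *Cry2*, *Nr1d1*, *Dbp* and *Nfil3*. They were selected by gene name, with the fall of *Nfil3* in the siRNA comparison already seen, so the siRNA comparison is given for them as a description without a test. Levels are given as TPM, a share of all transcripts scaled by gene length. All 10 passed the filter on low values, a TPM of 1 reached by 4 or more of the 8 muscles, as did 11530 genes in all. The mRNA was measured by RNA-seq in tibialis anterior (TA) muscles of 4 male C57BL/6J mice electroporated at 3 months of age and examined 7 days later. In each mouse, 1 TA muscle received a pool of *Uba1* siRNAs and the contralateral TA muscle a pool of non-targeting (NT) siRNAs, which gives 4 muscles per group. UBA1 is the main enzyme that activates ubiquitin, and electroporation reaches only some of the cells of a muscle. All NT muscles carry titles that begin with RTA and all *Uba1* siRNA muscles titles that begin with LTA, so the leg and the siRNA cannot be told apart. The mice are numbered here 1 to 4 by replicate, and the hour of collection is not given in the sources used here.

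The clock of a cell is a feedback loop of transcription. CLOCK, or its close relative NPAS2, pairs with BMAL1 and binds E-boxes to switch on the *Per* and *Cry* genes, whose proteins return to the nucleus and block their own activators. A second loop has the nuclear receptor REV-ERBα, made from *Nr1d1*, hold down *Bmal1* and *Npas2*, while DBP activates and NFIL3 represses genes through a shared site, the D-box. Skeletal muscle has its own clock, in which the mRNAs of the activators and of the PER and DBP group peak at opposite phases of the day, and the PER and CRY proteins are removed through ubiquitination.

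In the GRCm39 build and its GENCODE M39 annotation, all 10 are protein-coding genes. Promoter sequences from RefSeq, 250 bases before to 50 after a start of transcription, were found for 9 of them in a table built on GRCm38.p6, and all 12 windows matched GRCm39 once. *Per2* had no entry. Both strands of the windows were searched for E-boxes (CACGTG), E-prime boxes (CACGTT), D-boxes (TTATGTAA and TTACGTAA), cores bound by ROR and REV-ERB (TAGGTCA and TGGGTCA) and the cAMP response element (TGACGTCA). None of the matches overlapped another. The stretches before the starts of *Per3* and *Nr1d1* are shown because both mRNAs differed between mice, in opposite directions, and because both stretches lie outside annotated exons of protein-coding transcripts. Capitals mark the motif matches. The *Per3* stretch is chr4:151129141-151129372 on the minus strand, with a pair of D-boxes whose first bases lie 205 and 158 bases before the start. The *Nr1d1* stretch is chr11:98666204-98666453 on the minus strand, with an E-prime box on the opposite strand, read here as its reverse complement, beginning 28 bases before the start.
Per3: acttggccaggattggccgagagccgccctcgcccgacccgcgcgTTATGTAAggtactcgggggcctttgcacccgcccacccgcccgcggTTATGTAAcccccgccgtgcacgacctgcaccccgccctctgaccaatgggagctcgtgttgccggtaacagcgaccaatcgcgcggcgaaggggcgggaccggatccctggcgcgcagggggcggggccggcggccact
Nr1d1: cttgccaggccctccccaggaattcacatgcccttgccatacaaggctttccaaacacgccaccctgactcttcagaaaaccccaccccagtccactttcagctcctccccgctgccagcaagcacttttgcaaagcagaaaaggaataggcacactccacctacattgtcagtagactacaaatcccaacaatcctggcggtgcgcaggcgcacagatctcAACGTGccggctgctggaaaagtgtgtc

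*Per1* (chromosome 11, 68986035 to 69002300) held an E-box 166 bases before 1 of its starts, and *Cry1* an E-prime box and an E-box 79 and 60 bases before its start. *Cry2* held an E-prime box at 166 bases and *Nfil3* (chromosome 13, 53121245 to 53137010) the core TAGGTCA, on the opposite strand, at 12 bases. The windows of *Clock*, *Npas2* and *Dbp* held none of these letters. Of all 32851 promoters of the same length, 7.15% held CACGTG, 4.68% CACGTT, 0.938% TTATGTAA, 0.119% TTACGTAA, 2.61% TAGGTCA, 3.98% TGGGTCA and 1.79% TGACGTCA. In GENCODE M39, exons of *Clock*, *Per3*, *Nr1d1* and *Dbp* share 2047, 154, 1694 and 539 bases with the protein-coding genes *Tmem165*, *Uts2*, *Thra* and *Sphk2* on the other strand. The library kit does not mark strand, so reads in these stretches cannot be told apart.

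The targeted gene, *Uba1*, stood at 59.0 to 63.6 TPM in the NT muscles and at 6.77 to 23.1 TPM in the *Uba1* siRNA muscles. The treatment tags of *Uba1* siRNA replicates 2 to 4 name UBA2, UBA3 and UBA4, while titles and descriptions name UBA1. The summed level of 9 muscle fibre markers ranged from 107400 to 153400 TPM, in which *Acta1* and *Ckm* are counted, and the liver markers *Alb* and *Apoa1* together did not exceed 0.0558 TPM. Total read depth is unknown. As estimated from the lowest TPM values, a read was worth up to 1.087-fold as much in the other muscles as in the NT muscle of mouse 1. Genes of the mitochondrial genome took 39.9 to 50.3% of the TPM.

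TPM is scaled by gene length, so levels can be set side by side between genes. In the 4 NT muscles *Nr1d1* had the highest mean, 91.9 ± 21.2 TPM (SD, n = 4), followed by *Per1* with 62.6 ± 14.7, *Nfil3* with 40.8 ± 3.44 and *Dbp* with 26.5 ± 15.8. The cryptochromes *Cry2* and *Cry1* followed with 13.8 ± 5.61 and 7.16 ± 1.29 TPM, then *Per3* with 5.70 ± 3.62, *Per2* with 3.74 ± 3.40, *Clock* with 3.49 ± 0.523 and *Npas2* with 1.02 ± 0.658. Neighbours in this order overlapped in their ranges over the NT muscles, except *Per1* with *Nfil3* and *Clock* with *Npas2*.

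**Figure D1:**
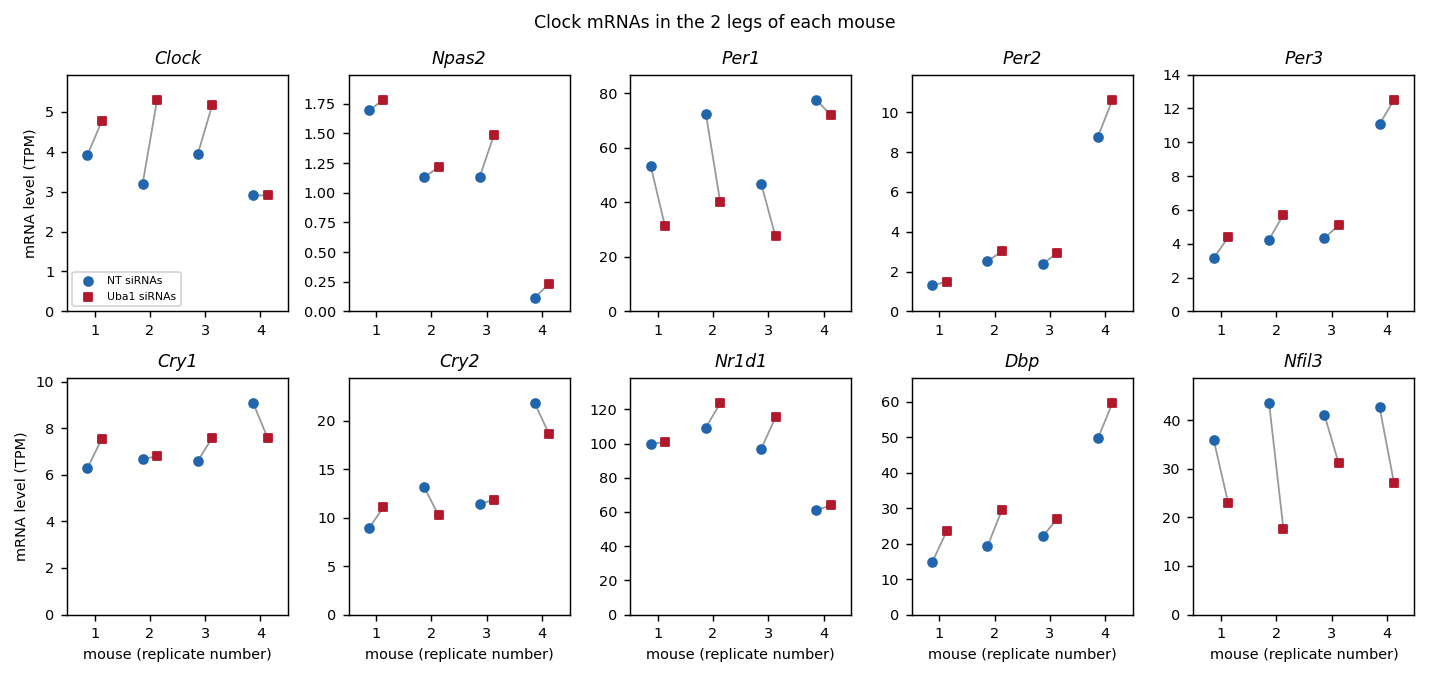
mRNA level in TPM (vertical axes, from 0) of the 10 clock genes in the 4 mice (horizontal axes), with blue circles for NT siRNAs, red squares for Uba1 siRNAs and a line joining the 2 legs of a mouse. Both legs of mouse 4 lie above the other muscles for Per2, Per3, Cry2 and Dbp and below them for Clock, Npas2 and Nr1d1, and Nfil3 is lower with Uba1 siRNAs in every mouse.

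The clearest pattern was between mice, in both legs alike. *Per2*, *Per3* and *Dbp* were higher in both muscles of mouse 4 than in each of the 6 muscles of the other mice, by 4.27-fold, 2.63-fold and 2.41-fold in the means, while *Nr1d1* was lower there. Differences among the 4 mice were tested as a mouse term with 3 degrees of freedom beside the siRNA in limma, a measure independent of the siRNA contrast. The test did not single out mouse 4, which is 1 animal and was named after its values were seen. Standard errors given for mouse 4 come from the same fit. They hold the scatter between the legs of a mouse, not the spread between mice. *Npas2* passed the filter on low values only through mice 1 to 3, where it was high, so its low level in mouse 4 is a description and is left out of the counts here. Of the other 9 genes, each at 1 TPM or more in every muscle, 4 passed a Benjamini-Hochberg adjusted p of 0.05 and 7 an unadjusted p of 0.05, against 34 (0.295%) and 19.3% of all 11530 genes tested. Of the 10643 genes at 1 TPM or more in every muscle, 31 passed. The F statistic had a median of 15.3 over the 9 genes and of 1.59 over those 10643. In bulk muscle, fewer cells of a type and less RNA per cell cannot be told apart.

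The period genes encode the repressors of the loop. *Per2* was at 1.30, 2.51, 2.38 and 8.78 TPM in the NT muscles of mice 1 to 4 and at 1.49, 3.01, 2.93 and 10.6 TPM in their *Uba1* siRNA muscles. Mouse 4 was highest and mouse 1 lowest in both legs, and the siRNA groups overlapped almost wholly. The mean of mouse 4 was 4.27-fold that of the other mice, 1.74 higher on the log2(TPM + 1) scale (SE 0.0776), and *Per2* had the highest F of all genes tested (186.5, limma adjusted p = 0.0021).

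*Per3*, a period gene with a weaker part in the loop, was likewise lowest in mouse 1 and highest in mouse 4 in each leg. It was at 3.15, 4.24, 4.33 and 11.1 TPM in the NT muscles and at 4.38, 5.72, 5.09 and 12.5 TPM in the *Uba1* siRNA muscles. Both legs of mouse 4 were above the other 6 muscles, 2.63-fold in the mean and by 1.23 on the log2 scale (SE 0.0817, limma adjusted p = 0.0152).

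*Per1*, the period gene that also responds to acute stimuli, was at 53.5, 72.4, 46.9 and 77.6 TPM in the NT muscles and at 31.2, 40.1, 27.5 and 72.0 TPM in the *Uba1* siRNA muscles. Its mouse term did not pass (limma adjusted p = 0.0968), and the NT muscle of mouse 2 lay above the *Uba1* siRNA muscle of mouse 4, so both legs of mouse 4 did not stand above all others. Mouse 4 was 0.79 higher than the other mice on the log2 scale (SE 0.143).

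The cryptochromes bind the PER proteins and block CLOCK and BMAL1. *Cry2* was at 8.91, 13.1, 11.4 and 21.8 TPM in the NT muscles and at 11.1, 10.2, 11.9 and 18.6 TPM in the *Uba1* siRNA muscles, with both legs of mouse 4 above the rest (1.82-fold) and a mouse term that did not pass (limma adjusted p = 0.0845). *Cry1* ranged only from 6.28 to 9.08 TPM over the 8 muscles, with a mouse term of adjusted p = 0.497 by limma.

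*Dbp*, a D-box activator and a direct target of CLOCK and BMAL1, was at 14.8, 19.3, 22.1 and 49.8 TPM in the NT muscles and at 23.5, 29.5, 27.0 and 59.7 TPM in the *Uba1* siRNA muscles. Both legs of mouse 4 were above the other 6, 2.41-fold in the mean and by 1.26 on the log2 scale (SE 0.1, limma adjusted p = 0.0209). *Nfil3*, which represses through the same D-box, showed no such order of mice: mouse 4 was 0.15 above the others on the log2 scale (SE 0.154, limma adjusted p = 0.511).

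Both activators were lowest in mouse 4, as were 8.72% of all genes, and neither is counted here as past the mouse term. *Npas2* was at 1.69, 1.13, 1.13 and 0.115 TPM in the NT muscles and at 1.78, 1.21, 1.49 and 0.234 TPM in the *Uba1* siRNA muscles, so that it reached 1 TPM only in mice 1 to 3. Both legs of mouse 4 were lowest, a difference of -1.03 from the other mice on the log2 scale (SE 0.0932), and both legs of mouse 1 were highest. *Clock* was at 3.92, 3.20, 3.95 and 2.91 TPM in the NT muscles and at 4.76, 5.30, 5.17 and 2.91 TPM in the *Uba1* siRNA muscles. Both legs of mouse 4 were lowest, with a mouse term that did not pass (limma adjusted p = 0.215).

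*Nr1d1*, the repressor with the highest mean level of the 10, was at 99.98, 109, 96.8 and 61.1 TPM in the NT muscles and at 101, 124, 115 and 63.8 TPM in the *Uba1* siRNA muscles. The other mice were 1.72-fold above mouse 4, a difference of -0.77 on the log2 scale for mouse 4 (SE 0.0791, limma adjusted p = 0.0493). This call lay near the threshold and held in 7 of 19 alternatives. It did not hold with a pseudocount of 0.1 (limma adjusted p = 0.0531) or with median-ratio scaling (0.0637). Of the 9 genes other than *Npas2*, 4 (*Per2*, *Per3*, *Cry2* and *Dbp*) had both legs of mouse 4 above the other 6 muscles, against 3.63% of all genes tested. Below them lay 2 (*Clock* and *Nr1d1*), against 8.72%. Mouse 4 was named after its values were seen. Over all genes it also stood apart most often, above or below for 1424 genes, against 443, 728 and 1023 for mice 1 to 3.

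Leaving out muscles of mice 3 or 4 lowered the calls among the 10 and over all genes. Leaving out 1 muscle of mouse 1 or 2 gave 5 to 7 of the 10 and 173 to 675 genes in all, against 5 and 34 with all muscles. Without the NT muscle, the *Uba1* siRNA muscle or both muscles of mouse 4, the limma mouse term passed for 0 of the 10 genes, *Npas2* included (8, 7 and 4 of them at an unadjusted p of 0.05, as were 12.3%, 12.9% and 12.1% of all genes), and for 0 of all genes. Without either or both muscles of mouse 3 it passed for 1 of the 10 and for 3 or 4 of all genes, with 7 of the 10 and 10.3 to 12.2% of all genes at an unadjusted p of 0.05. A linear model without moderation called 0 of the 10 (5 at an unadjusted p of 0.05, as were 11.25% of all genes) and 0 of all genes, and with no filter on low values only *Per2* of the 10 passed (limma adjusted p = 0.0225).

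Markers of other cells were set beside these values. The 5 endothelial markers summed to 94.1 and 106 TPM in its legs and to 111 to 131 TPM in the other muscles, with *Pecam1* and *Cdh5* among them. The 12 leukocyte markers, of which 7 were tested, summed to 130 and 148 TPM against 139 to 405 TPM, with *Lyz2* the most abundant and *Cd3e*, a T cell marker, at 0.0664 TPM or less in every muscle. The 4 fibroblast markers summed to 342 and 531 TPM against 432 to 986 TPM. No gene of these lists passed the mouse term by the limma adjusted p. At an unadjusted p of 0.05 were 2 of 5 endothelial, 5 of 7 leukocyte and 4 of 4 fibroblast markers, against 19.3% of all genes. Matrix genes outside these lists, such as *Bgn* and *Col5a3*, did pass (limma adjusted p = 0.0493 each). The median F of the mouse term was 19.35 for the fibroblast markers, above the 15.3 of the 9 clock genes. It was 5.79 for the leukocyte and 1.89 for the endothelial markers, against 1.63 over all genes tested. The part of these markers in the clock gene differences was not tested.

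**Figure D2:**
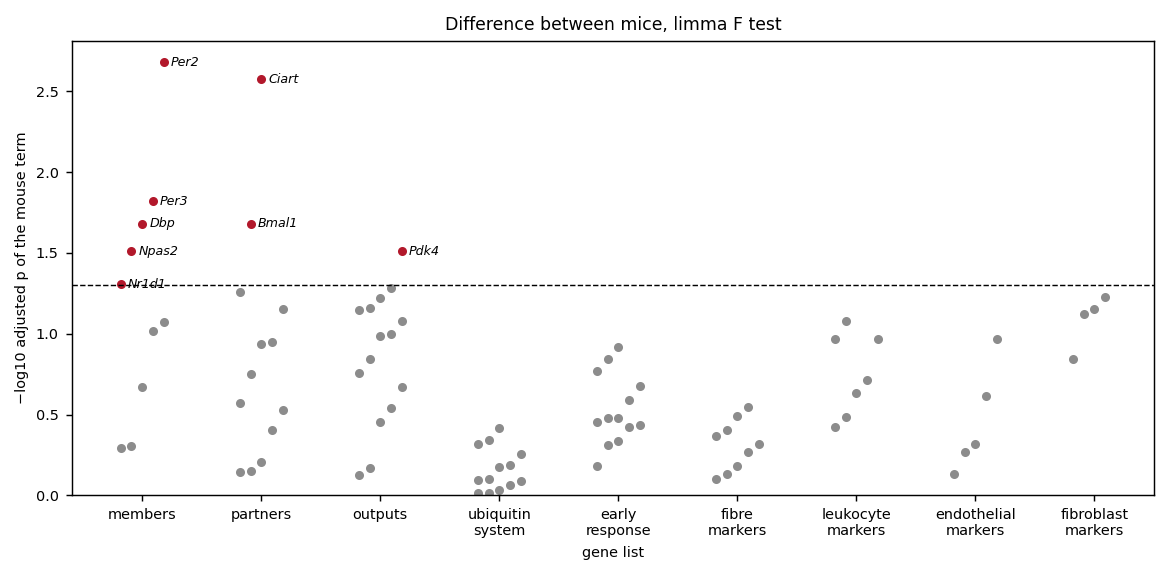
Size of the mouse term as -log10 of its limma adjusted p (vertical axis) for the tested genes of each list (horizontal axis), with the dashed line at an adjusted p of 0.05. The red, named points above the line are 5 of the 10 clock genes (Npas2, which passed the filter only through mice 1 to 3, among them), the partners Ciart and Bmal1, and the output gene Pdk4, and no gene of the other lists lies above it.

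The other genes of the loop were listed by their known roles. Of 15 partners, 13 were tested (all but *Bmal2* and *Rorb*) and 2 passed the mouse term, against 0.295% of all genes. In both legs of mouse 4, 6 of the 13 lay above the other muscles (3.63% of all genes) and 1 below them, a share near the 8.72% of all genes. *Bmal1*, the obligate partner of CLOCK and NPAS2, listed as *Arntl*, was at 6.99, 6.05, 5.56 and 1.95 TPM in the NT muscles and at 6.50, 5.90, 6.83 and 2.13 TPM in the *Uba1* siRNA muscles. The other mice were 3.09-fold above mouse 4, which stood at -1.26 on the log2 scale (SE 0.0915, limma adjusted p = 0.0209), the same side as *Npas2* and *Clock*.

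*Ciart*, a repressor of CLOCK and BMAL1, went with the period genes. It was at 2.58, 6.14, 3.31 and 17.7 TPM in the NT muscles and at 1.86, 3.93, 2.11 and 10.4 TPM in the *Uba1* siRNA muscles, and mouse 4 was 4.24-fold above the others (1.83 on the log2 scale, SE 0.0931, limma adjusted p = 0.00266). *Nr1d2* encodes REV-ERBβ, the paralogue of the *Nr1d1* product, and ran opposite to *Nr1d1*, at 48.8 to 52.1 TPM in mouse 4 and 24.9 to 38.2 TPM in the other mice. Its mouse term did not pass (0.64 on the log2 scale, limma adjusted p = 0.113).

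Of 16 output genes, 15 were tested (all but *Lonrf3*) and 1 passed the mouse term, against 0.295% of all genes. At an unadjusted p of 0.05 by limma were 11 of the 15, against 19.3%. *Pdk4*, which restrains the entry of pyruvate into the citric acid cycle, was at 410, 279, 219 and 191 TPM in the NT muscles and at 423, 328, 212 and 176 TPM in the *Uba1* siRNA muscles, highest in mouse 1 and lowest in mouse 4 (-0.71 on the log2 scale, SE 0.0903, limma adjusted p = 0.0310). In both legs of mouse 4, 6 of the 15 lay above the other muscles (3.63% of all genes) and 1 below, the latter again near the share of all genes. The median F was 6.47 for the partners and 12.4 for the outputs, against 1.63 over all genes.

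Of 14 genes of the ubiquitin system known to act on clock proteins, 13 were tested (all but *Fbxl21*). None passed the mouse term by limma, and 0 reached an unadjusted p of 0.05, against 19.3% of all genes. Their median F was 0.568, against 1.63 over all genes. At 1 TPM or more in every muscle, 31 genes passed the mouse term (0.291% of 10643), and 7 of them were in the clock, partner and output lists. With the ubiquitin system, these lists held 10 clock genes and 41 others among the genes tested. Genes past the mouse term outside the lists included *Cish* (F of 181.7) and *Nmrk2* (F of 86.0).

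**Figure D3:**
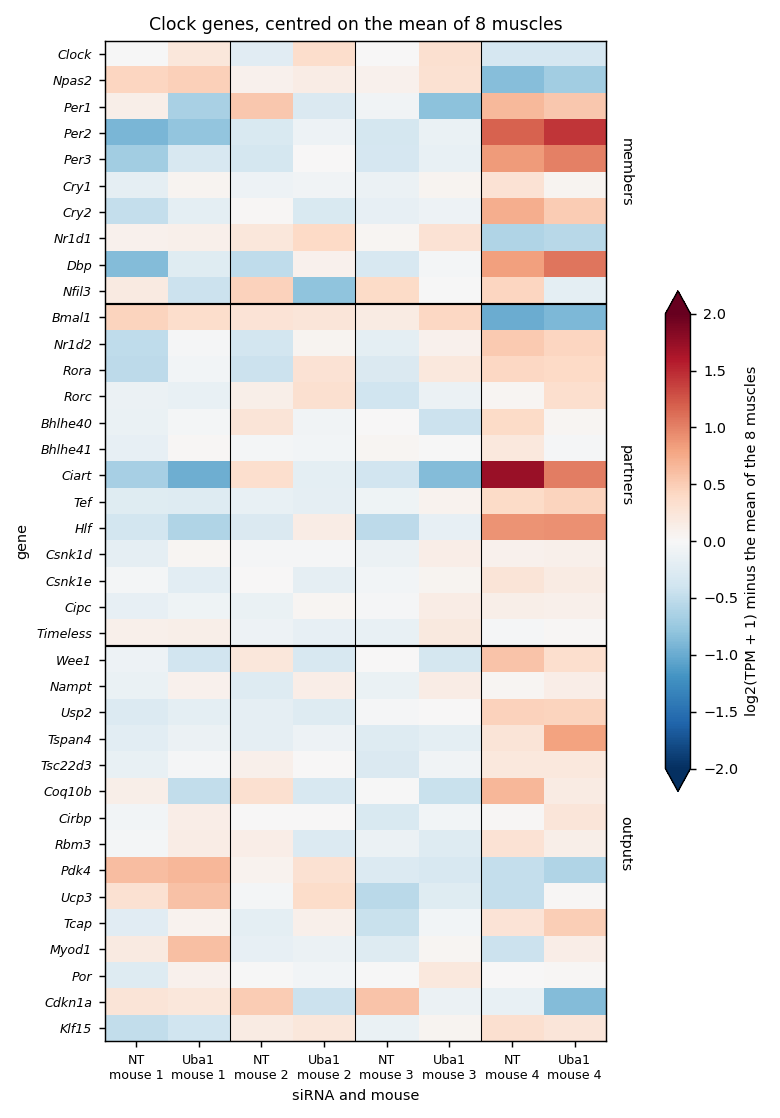
log2(TPM + 1) of each tested clock, partner and output gene (rows) in each muscle (columns, ordered by mouse), minus the gene's mean over the 8 muscles, red above and blue below. In both columns of mouse 4, Per2, Per3, Cry2, Dbp, Ciart and Hlf are red and Npas2, Nr1d1, Bmal1 and Pdk4 are blue, while Nfil3 is lower in each Uba1 siRNA column than in the NT column of the same mouse.

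*Nfil3* was the only one of the 10 genes whose log2 difference between siRNAs exceeded the range of the 4 mouse means (0.36 for *Nfil3*). It was at 35.8, 43.5, 41.1 and 42.6 TPM in the NT muscles and at 22.9, 17.6, 31.1 and 27.1 TPM in the *Uba1* siRNA muscles. All *Uba1* siRNA muscles lay below all NT muscles, and *Nfil3* was the only one of the 10 genes whose groups did not overlap. Its fall had been seen before the genes were chosen, so these values describe it and test nothing. Its mean was 40.8 ± 3.44 TPM with NT siRNAs and 24.7 ± 5.79 TPM with *Uba1* siRNAs (SD, n = 4 each), a log2 difference of -0.73 (SE 0.154). The 4 mice gave -0.62, -1.26, -0.39 and -0.63.

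*Per1* was lower with *Uba1* siRNAs in 4 of 4 mice, with log2 differences of -0.76, -0.84, -0.75 and -0.11 and a mean of -0.61 (SE 0.283). Its groups overlapped, at 62.6 ± 14.7 and 42.7 ± 20.3 TPM. *Dbp* was higher with *Uba1* siRNAs in 4 of 4 mice, by 0.63, 0.59, 0.28 and 0.26 on the log2 scale (mean 0.44, SE 0.380), at 26.5 ± 15.8 and 34.9 ± 16.7 TPM. The standard errors of these siRNA differences hold the spread between mice. With the mouse as a block they were 0.134 for *Nfil3*, 0.124 for *Per1* and 0.0866 for *Dbp*.

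*Per2* (0.19, SE 0.526), *Per3* (0.27, SE 0.366), *Npas2* (0.12, SE 0.313) and *Nr1d1* (0.12, SE 0.233) were higher with *Uba1* siRNAs in 4 of 4 mice. With the mouse as a block their standard errors were 0.0672, 0.0708, 0.0807 and 0.0685 in the same order. *Clock* was higher in 3 of 4 mice (0.28, SE 0.158). *Cry1* (0.05, SE 0.106) was higher in 3 of 4 mice and *Cry2* (-0.053, SE 0.257) in 2 of 4, and with median-ratio scaling *Cry1* turned to -0.06 and *Nr1d1* to 0.0036. All genes tested had a median log2 difference of 0.11, which median-ratio scaling brought to 0.0016. The 10 genes had a median of 0.12, which it brought to 0.028, with 7 higher as deposited and 6 after scaling, against 81.8% and 50.7% of all genes.

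**Figure D4:**
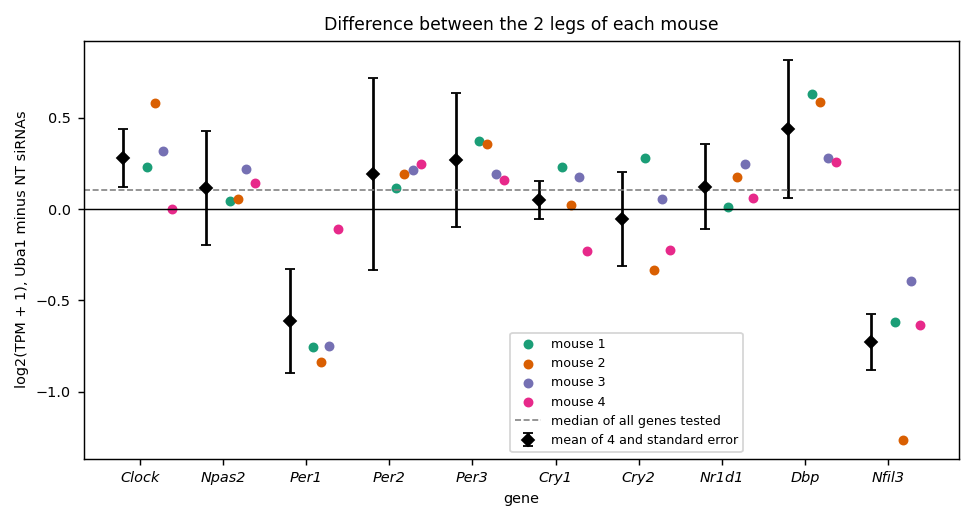
Difference in log2(TPM + 1) between the Uba1 siRNA and NT siRNA legs (vertical axis) for the 10 clock genes (horizontal axis), with a coloured point per mouse and a black diamond for the mean of 4 with its standard error from limma without the mouse as a block. Nfil3 and Per1 lie below 0 in every mouse, and the dashed line marks the median of all genes tested, 0.11.

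The counts behind this are given as a description, since the genes were chosen with this comparison known. Groups did not overlap for 1 gene in the lower and 0 in the higher direction, against 1.01% and 10.6% of all genes. A lower value in 4 of 4 mice was seen for 2 genes (2.98% of all genes) and a higher one for 5 (32.2%).

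Genes of the early response to stimuli, such as *Fos*, *Egr1* and *Atf3*, are given beside *Nfil3* and *Per1*. Of 13 listed and tested, 12 had lower means with *Uba1* siRNAs (18.2% of all genes), with a median log2 difference of -0.54, but they had been seen to fall before they were listed, so the count restates that choice. Their summed level was 1426 to 2583 TPM in the NT muscles and 860 to 1880 TPM in the *Uba1* siRNA muscles, and their part in the lower *Nfil3* and *Per1* was not tested.

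Among the partners, outputs and ubiquitin-system genes, 0 passed the siRNA contrast by the limma adjusted p (0.0260% of all genes), with 0 of 13, 3 of 15 and 2 of 13 at an unadjusted p of 0.05 (18.0% of all genes). The Kruskal-Wallis test called 0 of them, with 0, 1 and 2 at an unadjusted p of 0.05 (19.2% of all genes). With the mouse as a block, limma called 0, 1 and 0 of them (0.494% of all genes), with 5 of 13, 7 of 15 and 2 of 13 at an unadjusted p of 0.05 (25.2% of all genes).

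The partners with the largest log2 differences were *Ciart* (-0.51, SE 0.570, or 0.0806 with the block), the nuclear receptor *Rora*, an activator of *Bmal1* (0.42, SE 0.196), and *Nr1d2* (0.27, SE 0.208). *Ciart* was lower with *Uba1* siRNAs in 4 of 4 mice, with log2 differences of -0.32, -0.53, -0.47 and -0.71, and its limma adjusted p went from 0.631 to 0.056 with the block. With the block, the standard errors of *Rora* and *Nr1d2* were 0.115 and 0.102. This order held for the deposited values. With median-ratio scaling, *Bhlhe40* (-0.37, from -0.25 as deposited) differed more than *Rora* (0.31) and *Nr1d2* (0.16). *Bmal1* differed by 0.05 (SE 0.368), a value that median-ratio scaling turned to -0.05.

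Among the outputs they were *Cdkn1a*, an inhibitor of the cell cycle (-0.60, SE 0.235), *Coq10b*, a coenzyme Q binding protein (-0.55, SE 0.178), and *Ucp3*, a mitochondrial carrier (0.37, SE 0.221). With the block their standard errors were 0.138, 0.0664 and 0.068. *Coq10b* was lower in 4 of 4 mice, and its limma adjusted p of 0.185 became 0.0303 with the block, while *Ucp3*, higher in 4 of 4 mice, went from 0.378 to 0.0679 by limma. In the ubiquitin system, the ligase *Mycbp2* differed by 0.25 (SE 0.114) and the ligase *Ube3a* by 0.22 (SE 0.105), with standard errors of 0.088 and 0.106 with the block.

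The genes most like *Nfil3* over the 8 muscles, by Pearson correlation of log2(TPM + 1), were *Atp6v0a1*, *Gfpt2*, *Ywhaz* and *Xirp1* (each 0.96) and *Nfkbie* (0.95). By deviations from the group means they were *Xbp1* and *Rnf220* (each 0.97), *Rnf40*, *Setd1a* and *Cbll1* (each 0.96), so the 2 measures named different genes. For *Dbp* the levels named *Per3* (0.99), *Hk2* (0.98), *Mid1ip1* (0.97), *Nr1d2* and *Dusp7* (each 0.96), and the deviations *Per3* (0.9956), *Klf9* (0.9952), *Per2*, *Hk2* and *Slc7a2* (each 0.98). All these values share the same 8 muscles and their scaling, and for *Dbp* and the genes like it the 2 legs of mouse 4 set much of the range.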

How the data were processed

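Total RNA of 8 mouse TA muscles was sequenced. The authors aligned the reads to GRCm39 in CLC Genomics Workbench and deposited a TPM value per gene and muscle, scaled by gene length and to 1000000 per muscle. The annotation they used is not given in the sources used here. All columns were assigned to a sample, with groups and replicate numbers taken from the labels. Equal numbers mark the contralateral muscles of a mouse, and the correlations of their deviations from the group means were -0.00037, 0.20, 0.58 and 0.54.

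The values were transformed to log2(TPM + 1), and a gene was kept where 4 or more muscles reached 1 TPM. The siRNA contrast (without a block) and the mouse term (F test beside the siRNA) were fitted across all genes in limma 3.58.1 (R 4.3.3; lmFit, eBayes with a trend), with Benjamini-Hochberg adjusted p-values. The authors' methods name a Kruskal-Wallis test, which was run as an alternative. Both fits were tested on simulated data. Gene positions came from GENCODE M39 and promoters from RefSeq. The members and all lists were chosen with earlier results of these data known. Named from the partner, output and ubiquitin-system lists were *Bmal1*, *Nr1d2*, each gene past the adjusted p and the 3 largest log2 differences per list, of which 1 is not reported here. Alternatives were another pseudocount, other filters, median-ratio and quantile scaling, TPM without mitochondrial genes, the mouse as a replicate block, the Kruskal-Wallis test, a linear model without moderation and leaving out each muscle. Leaving out both muscles of a mouse was added after seeing the data.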

Additional observations from a re-analysis of the deposited data

Results flagged for a closer look

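Of 28 groups of 4 muscles examined for a value far from the rest, 3 held one, and chance flags about 1 in 20 such groups. *Cry1* stood at 9.08 TPM in NT siRNA replicate 4, above the other NT muscles. In the *Uba1* siRNA group, *Cry1* stood at 6.80 TPM in replicate 2, below the other muscles of that group. *Bmal1* stood at 2.13 TPM in *Uba1* siRNA replicate 4, below the other muscles of its group, and the NT muscle of the same mouse was also the lowest of its group at 1.95 TPM.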

How the results depend on the processing

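The log2 difference between siRNAs kept its sign under all 20 alternatives for *Nfil3* (-0.85 to -0.55), *Per1* (-0.89 to -0.44) and *Dbp* (0.15 to 0.79) and under all 19 for *Clock*. *Per3* and *Nr1d1* kept it under 19 of 20, *Npas2* and *Per2* under 17 of 19 and *Cry1* and *Cry2* under 15 of 20. The number of the 10 genes with a lower mean ranged from 2 to 5 when a muscle or a mouse was left out. The limma mouse term, which called 5 of the 10 genes with *Npas2* included, 3 other clock genes and 34 genes in all, called 1, 1 and 9 without a filter on low values. With a mean of 5 TPM or more it called 3 of the 7 members tested, 8 and 95, and the siRNA contrast called 11 genes in all, against 3. Median-ratio scaling gave 5 other clock genes by the mouse term and 23 siRNA calls, quantile normalization 3 of the 10 and 28 siRNA calls, and TPM without mitochondrial genes 5 other clock genes, 77 in all and 13 siRNA calls. With the mouse as a replicate block, the siRNA contrast called 1 other clock gene and 57 genes in all, and with median-ratio scaling as well 2 and 76. The Kruskal-Wallis test called 0 genes by siRNA (2210 at an unadjusted p of 0.05), an outcome that groups of this size fixed in advance. A linear model without moderation called 0 of the 10, 0 others and 0 genes in all by the mouse term (5, 12 and 1297 at an unadjusted p of 0.05). When a muscle or a mouse was left out, the mouse term called 0 to 7 of the 10, 0 to 15 other clock genes and 0 to 751 genes in all, and the siRNA contrast 0 to 39 in all. In these the lowest counts of the mouse term, 0, came without muscles of mouse 4, and the highest over all genes, 751, without both muscles of mouse 1. Apart from the smaller number of samples or genes that some alternatives hold by construction, the causes were not tested. The mouse term of *Per2* passed in 14 of 18 alternatives (adjusted p 0.00209 to 0.299), *Ciart* in 15 of 19, *Per3*, *Dbp* and *Bmal1* in 11 of 19, *Pdk4* in 10 of 19 and *Nr1d1* in 7 of 19. Total read depth is unknown, so no counting error can be given for low mRNAs such as *Npas2*.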
